A study of Mus musculus with 6 samples.

Results

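MicroRNAs are made and put to use by a short chain of proteins, and 10 genes of that chain are described here in mouse mammary carcinoma cells in which a microRNA precursor was switched on. The 10 are Drosha, Dgcr8, Xpo5, Dicer1, Ago1, Ago2, Ago3, Tnrc6a, Tnrc6b and Tnrc6c. They were chosen by symbol for their known roles, and with earlier results of these data known, out of 43548 genes in the deposited table. All 10 were found and had a mean above 1 FPKM. Dgcr8 stands in the table under 2 identifiers, 1 of them at 0 throughout, and the row with the higher mean was used.

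Met-1 cells come from a late-stage tumor of the MMTV-PyMT mouse, in which a viral promoter drives polyoma middle T antigen in the mammary gland, and the labels give the strain as FVB/nJ. In Met-1 TripZ-200c cells a lentiviral pTripZ-RFP vector encodes the precursor of miR-200c and is turned on by doxycycline (Dox). These cells are 1 clone, sorted for low leakage without Dox and for intermediate red fluorescence with it. mRNA was sequenced in 3 libraries of cells given vehicle for 48 h (MinusDox) and 3 libraries of cells given 1 µg/mL Dox for 48 h (PlusDox). Both groups carry the vector, and empty-vector cells given Dox were not analysed here, so Dox itself and miR-200c cannot be told apart. Nothing in the labels places the libraries of a group in separate experiments, so the p-values below measure only the spread between these samples, which may be technical. A figure legend of the authors instead names samples treated for longer than 48 h, from several experiments in triplicate, without assigning libraries to experiments.

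A microRNA is transcribed as a long primary RNA and cropped in the nucleus to a hairpin by the Microprocessor, made of the nuclease DROSHA and its RNA-binding partner DGCR8. Exportin-5 carries the hairpin to the cytoplasm, where DICER cuts it to a duplex, and 1 strand of that duplex is loaded into an Argonaute protein. Argonaute pairs the seed of the microRNA, its bases 2 to 8, with matching sites that lie mostly in 3′ UTRs, and recruits a GW182 (TNRC6) protein, which brings in the enzymes that remove the poly(A) tail and the cap. The question here was whether the mRNAs of this chain shift when 1 precursor is made in excess.

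The sequence inserted in the vector is not given in the sources used here. The mouse precursor of miR-200c and its mature product are shown because the vector encodes a precursor of this microRNA. Both are reference sequences from RefSeq (GRCm38.p6, minus strand), the hairpin at chr6:124718322-124718390 and the mature strand at chr6:124718324-124718346. Capitals mark the mature strand within the hairpin, and the seed within the mature strand.
mir-200c hairpin: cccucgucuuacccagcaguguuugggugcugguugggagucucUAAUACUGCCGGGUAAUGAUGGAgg
miR-200c-3p: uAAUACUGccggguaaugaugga

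The mRNA letters that pair with this seed are CAGTATT, and they were searched on the mRNA strand of the longest annotated 3′ UTR of each gene (GENCODE M21, GRCm38). That genome is of the C57BL/6 strain while the cells are FVB, so a base that differs between the strains would be missed. Among the 10 genes only Ago2 and Tnrc6b held a match, Ago2 with 3 in a 3′ UTR of 11064 bases and Tnrc6b with 1 in 11609 bases. All 4 matches of 7 bases in the 10 genes are shown. The single match of 6 bases in Tnrc6a is shown as well because Tnrc6a is the gene whose fall is reported below. It was thus picked by that change, and a link between the match and the change was not tested. Other matches of 6 bases, among them 2 in Dicer1, 1 in Ago1, 5 in Ago3 and 1 in Tnrc6c, are not shown. Capitals mark the match.
Ago2, from base 854 of the 3′ UTR, chr15:73106037-73106065, minus strand: tatctggtttgCAGTATTaatgtggtagg
Ago2, from base 4453, chr15:73102438-73102466, minus strand: aacacacatttCAGTATTacatgctcgag
Ago2, from base 6457, chr15:73100434-73100462, minus strand: cctggccgctgCAGTATTcagctaacact
Tnrc6b, from base 8490, chr15:80937955-80937983, plus strand: ctcacaggctcCAGTATTctctgaactct
Tnrc6a, from base 556 of 2345, chr7:123193495-123193523, plus strand: attcttaatgaaAGTATTgcaccagtttt

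A match was common in 3′ UTRs of that length. Among tested genes with a 3′ UTR within 20% of that of Ago2, 54.8% of 42 held at least 1 match of 7 bases, and for Tnrc6b the share was 51.4% of 37. For Tnrc6a, whose 3′ UTR had none, it was 25.5% of 1620. Of the 10798 tested genes with an annotated 3′ UTR, 16.1% held at least 1 match of 7 bases. A match of 6 bases, AGTATT, which every match of 7 contains, was found in 7 of the 10 genes, the exceptions being Drosha, Dgcr8 and Xpo5. Of all tested genes with an annotated 3′ UTR, 36.8% held such a match. Among tested genes of like 3′ UTR length the share ran from 56.2% (Tnrc6a) to 92.9% (Ago2) for these 7. For the exceptions it ran from 4.38% (Drosha) to 39.1% (Dgcr8). A match is a run of letters and not a measured site.

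Expression was given as FPKM, fragments scaled for transcript length and library size, so that levels of different genes can be set side by side, whereas the read depth behind a value is unknown. Library sums were between 800267 and 815139 FPKM, and between 16867 and 18012 genes were above 0. Groups were compared with limma on log2(FPKM + 0.1) over the 12879 genes that averaged 1 FPKM or more, and a gene passed at a Benjamini-Hochberg adjusted p under 0.05. Of these genes 15.0% passed, 7.06% higher and 7.97% lower with Dox, and the median log2 fold change was 0.00. The microRNA gene Mir200c was listed at 0 in all 6 libraries, so induction was read from Zeb1 and Zeb2, established targets of miR-200c. Zeb1, whose longest 3′ UTR held 5 matches of 7 bases, fell with a log2 fold change of -0.98 (limma adjusted p = 3.62e-04), and Zeb2, also with 5, fell with one of -1.81 (limma adjusted p = 4.48e-05). Of the epithelial markers, Krt18 averaged 93.2 FPKM without and 386 FPKM with Dox and Epcam 0.128 and 4.06 FPKM. Krt8 averaged 0.262 and 0.736 FPKM and Cdh1 0.0585 and 0.828 FPKM. Both were also higher with Dox, with no overlap between the groups, but averaged below 1 FPKM in each group. The mesenchymal marker Vim averaged 3961 and 3104 FPKM. Of the leukocyte markers, Adgre1 and Cd3e were listed at 0, Ptprc and Csf1r averaged under 0.1 FPKM in each group and Cd68 lay between 6.31 and 11.3 FPKM over the 6 libraries. Of the endothelial markers Pecam1 averaged 0.0376 and 0.00621 FPKM and Cdh5 4.45 and 4.15 FPKM. In bulk libraries a change in the number of expressing cells and a change in the mRNA of each cell cannot be told apart.

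Of the 10 machinery genes, 3 passed, or 30%, beside 15.0% of all 12879 tested genes. Tnrc6a was lower and Xpo5 and Dicer1 were higher with Dox. The groups did not overlap in 6 of the 10, against 35.0% of the 12875 genes with all 6 values, and these were Xpo5, Dicer1, Ago1 and Tnrc6b, higher with Dox, and Ago2 and Tnrc6a, lower. The changes were small: the log2 fold changes ran from -0.44 to 0.24 with a median of 0.05, and none reached 1.5-fold.

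**Figure D1:**
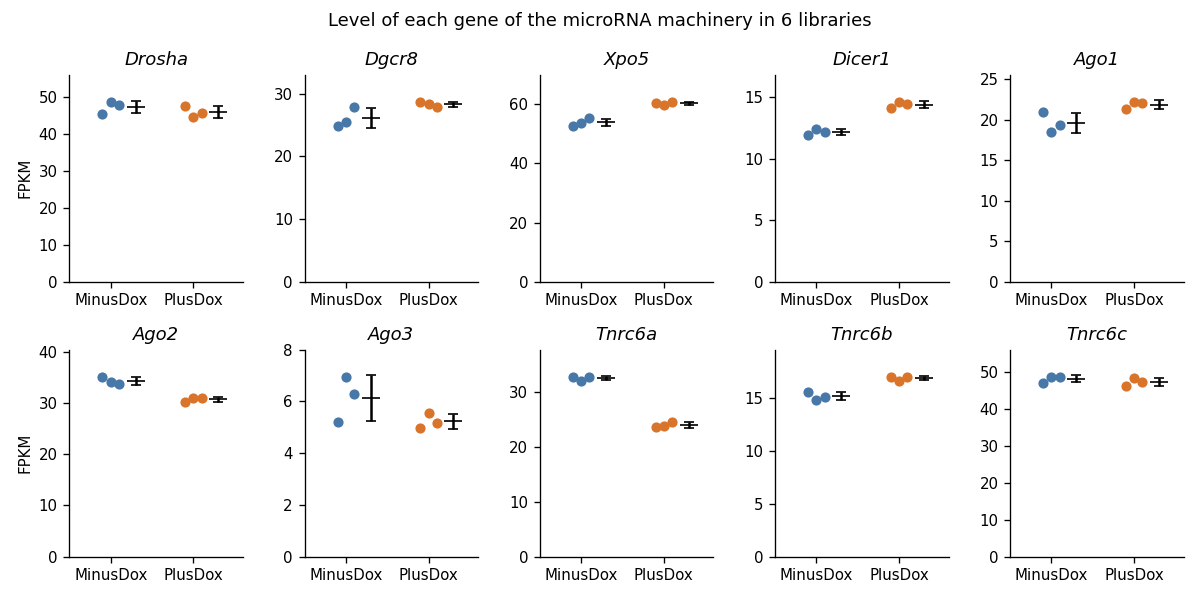
FPKM of each of the 10 genes on linear axes from 0, with 1 point per library, MinusDox in blue and PlusDox in orange, and a bar for the mean with its SD (n = 3). The clearest step is that of Tnrc6a, from 32.2 to 32.9 FPKM without Dox to between 23.7 and 24.6 FPKM with it.

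In the order of their levels without Dox, Xpo5 stood first at 53.9 ± 1.25 FPKM (SD, n = 3), ahead of Tnrc6c at 48.1 ± 0.952 and Drosha at 47.5 ± 1.67, whose ranges overlapped each other. Ago2, Tnrc6a, Dgcr8, Ago1, Tnrc6b and Dicer1 followed in that order, and Ago3 was last at 6.15 ± 0.886 FPKM. Apart from Tnrc6c and Drosha, no neighbours in this order had overlapping ranges. With Dox the order was the same except that Dgcr8 (28.3 ± 0.438 FPKM) stood above Tnrc6a (24.1 ± 0.484 FPKM), and again only Tnrc6c and Drosha overlapped.

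Neither cropping gene passed in limma, and neither had an unadjusted p under 0.05, which 3761 of the 12879 tested genes had. Drosha (ENSMUSG00000022191, chr15:12824815-12935291) encodes the nuclease that releases the hairpin. It was at 45.6, 48.8 and 48.0 FPKM in MinusDox libraries 1 to 3 and at 47.7, 44.6 and 45.8 FPKM in PlusDox libraries 1 to 3. The groups overlapped, and the log2 fold change was -0.04 with a 95% interval of -0.16 to 0.07 (adjusted p = 0.616). Dgcr8 (ENSMUSG00000022718, chr16:18253948-18289246), whose product anchors the primary transcript, was at 24.8, 25.5 and 27.9 FPKM without and 28.7, 28.4 and 27.8 FPKM with Dox. MinusDox library 3 lay just above the lowest PlusDox library, and the log2 fold change was 0.12 with an interval of -0.02 to 0.26 (adjusted p = 0.234). The longest transcript of Dgcr8 shares 19.1% of its length with Trmt2a, which lies on the opposite strand, and whether the counting used strand is not given in the sources used here.

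The export gene and the dicing gene rose. Xpo5 (ENSMUSG00000067150, chr17:46202782-46243598) encodes exportin-5, the carrier of the hairpin. The MinusDox libraries gave 52.7, 53.6 and 55.2 FPKM and the PlusDox libraries 60.3, 59.7 and 60.8 FPKM. All 3 PlusDox libraries lay above all 3 MinusDox libraries, and the log2 fold change was 0.16 (standard error, SE, 0.0389, limma adjusted p = 0.0339). Dicer1 (ENSMUSG00000041415, chr12:104687742-104751952) encodes the nuclease that cuts the hairpin to a duplex. Its FPKM was 12.0, 12.4 and 12.2 in the MinusDox libraries and 14.1, 14.6 and 14.5 in the PlusDox libraries. These groups did not overlap either, and the log2 fold change was 0.24 (SE 0.0612, limma adjusted p = 0.0405). Neither 3′ UTR held a match of 7 bases. Both calls lie near the threshold and were lost when any 1 of the 6 libraries was left out, with adjusted p from 0.0516 to 0.109 for Xpo5 and from 0.0847 to 0.127 for Dicer1. The log2 fold changes in those fits ran from 0.15 to 0.18 for Xpo5 and from 0.23 to 0.26 for Dicer1. Over all tested genes 1048 to 1359 passed in them, against 1935 with no library left out.

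Both RNA-binding partners of DICER were measured at higher FPKM than Dicer1 itself. Tarbp2, which encodes TRBP, averaged 25.5 ± 1.29 FPKM without and 29.3 ± 0.584 FPKM with Dox (SD, n = 3). Its groups did not overlap, but it did not pass (log2 fold change 0.20, adjusted p = 0.0546), and 25.7% of its longest transcript is shared with another annotated gene. Prkra, which encodes PACT, averaged 24.9 ± 2.91 and 23.4 ± 0.725 FPKM with overlapping groups (log2 fold change -0.08, adjusted p = 0.602).

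**Figure D2:**
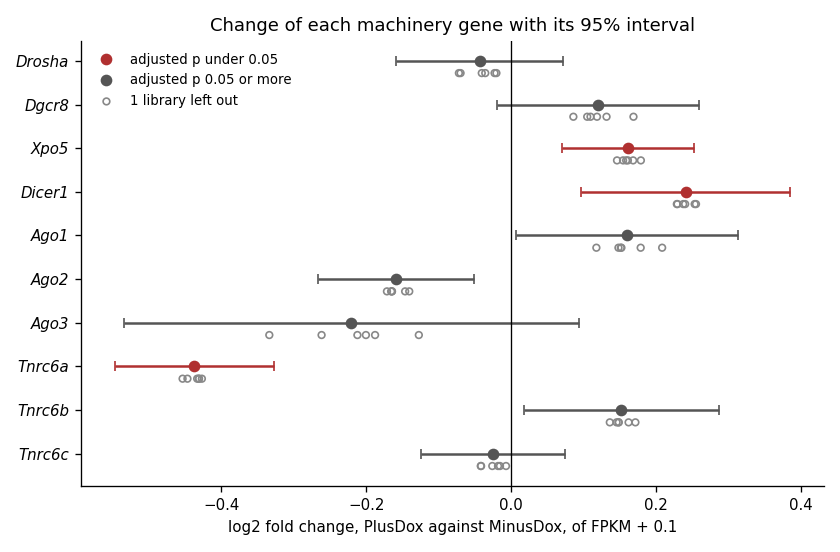
Log2 fold change of FPKM + 0.1, PlusDox against MinusDox, for the 10 genes in the order of the pathway. Filled points with bars give the estimate and its 95% interval, red where the adjusted p was under 0.05, and open circles give the estimates with 1 library left out. The estimate of Tnrc6a, -0.44, is the lowest, and the estimates of the other 9 lie between -0.22 and 0.24. The interval of Ago3, -0.53 to 0.09, includes the Tnrc6a estimate.

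None of the 3 Argonaute genes, which encode the proteins that hold the mature microRNA, passed in limma. An unadjusted p under 0.05 was found for 2 of them, Ago1 and Ago2, and for 3761 of all 12879 tested genes. Ago2 (ENSMUSG00000036698, chr15:73095844-73184935) encodes the Argonaute that can cut its target, and was the most abundant of the 3. Its level was 35.2, 34.0 and 33.7 FPKM in the MinusDox libraries and 30.2, 31.0 and 31.0 FPKM in the PlusDox libraries. All PlusDox values lay below all MinusDox values, and the log2 fold change of -0.16 (interval -0.27 to -0.05) missed the threshold at an adjusted p of 0.0600. An unmoderated linear model on FPKM put it just past the threshold (adjusted p = 0.0337). Its 3′ UTR holds the 3 matches shown above, 2 of them followed by an A.

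Ago1 (ENSMUSG00000041530, chr4:126435012-126468583) was measured at 21.0, 18.5 and 19.4 FPKM in MinusDox and at 21.3, 22.2 and 22.1 FPKM in PlusDox libraries. The PlusDox values were the higher ones without overlap, by a narrow gap above MinusDox library 1, and the log2 fold change was 0.16 (interval 0.01 to 0.31, adjusted p = 0.156). Ago3 (ENSMUSG00000028842, chr4:126331704-126429556), at the neighbouring locus, was measured at 5.20, 6.96 and 6.28 FPKM in MinusDox and at 4.99, 5.54 and 5.16 FPKM in PlusDox libraries. Its groups overlapped, and its log2 fold change of -0.22 had the widest interval of the 10 genes, -0.53 to 0.09 (adjusted p = 0.329). Ago4 was below the filter, with 0.0767 FPKM as its highest value in any library.

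Because FPKM is per length, the make-up of the Argonaute family could be followed within each library. Ago1 took 34.2%, 31.1% and 32.7% of the summed FPKM of Ago1 to Ago4 without Dox and 37.7%, 37.9% and 37.9% with Dox. Ago2 took 57.3%, 57.2% and 56.8% without Dox and 53.4%, 52.7% and 53.1% with Dox. The difference with Dox was 5.22 percentage points for Ago1 and -3.99 points for Ago2, in both cases without overlap. An exact two-sided permutation test over the libraries gave p = 0.1 for each, the smallest that 3 libraries against 3 allow. The share of Ago3 was 10.2 ± 1.64% without and 9.03 ± 0.340% with Dox (SD, n = 3), with overlap (exact permutation p = 0.4). The summed level of the family was 60.1 ± 1.14 FPKM without and 57.9 ± 1.21 FPKM with Dox, again without overlap (exact permutation p = 0.1).

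The GW182 genes encode the adaptors through which Argonaute reaches the deadenylases, and here 1 of 3 fell. Tnrc6a (ENSMUSG00000052707, chr7:123123885-123195296) was at 32.9, 32.2 and 32.8 FPKM in the MinusDox libraries and at 23.7, 23.8 and 24.6 FPKM in the PlusDox libraries. The groups were far apart relative to their spread: the log2 fold change was -0.44 (SE 0.0466, interval -0.55 to -0.33, limma adjusted p = 0.00144), or 0.739 times the level without Dox. This call was kept with each library left out, with log2 fold changes from -0.45 to -0.43. In size it exceeded the absolute log2 fold changes of 88.2% of the tested genes. No match of 7 bases lies in its 3′ UTR of 2345 bases.

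Tnrc6b (ENSMUSG00000047888, chr15:80711313-80941085) had 15.6, 14.9 and 15.1 FPKM in MinusDox libraries and 17.0, 16.7 and 17.1 FPKM in PlusDox libraries. Its values were higher with Dox without overlap, but it did not pass (log2 fold change 0.15, interval 0.02 to 0.29, adjusted p = 0.129, and 0.0349 in the unmoderated model on FPKM), and its 3′ UTR is the one with a single match of 7 bases. Tnrc6c (ENSMUSG00000025571, chr11:117654289-117763439), the most abundant of the family, had 47.0, 48.5 and 48.7 FPKM in MinusDox libraries and 46.1, 48.4 and 47.3 FPKM in PlusDox libraries. The groups overlapped, and the interval of its log2 fold change, -0.12 to 0.08 around -0.02, was among the narrowest of the 10 (adjusted p = 0.750).

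Within the GW182 family, Tnrc6a took 34.4%, 33.7% and 33.9% of the summed FPKM without Dox and 27.3%, 26.8% and 27.7% with Dox. Tnrc6b took 15.9 ± 0.437% without and 19.2 ± 0.412% with Dox, and Tnrc6c 50.1 ± 0.827% and 53.5 ± 0.742% (SD, n = 3). The groups did not overlap for any of the 3 shares, each with an exact permutation p = 0.1, and because shares sum to 100% they are not independent of one another. The summed level of the family was 95.9 ± 0.629 FPKM without and 88.2 ± 1.24 FPKM with Dox, without overlap (exact permutation p = 0.1).

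**Figure D3:**
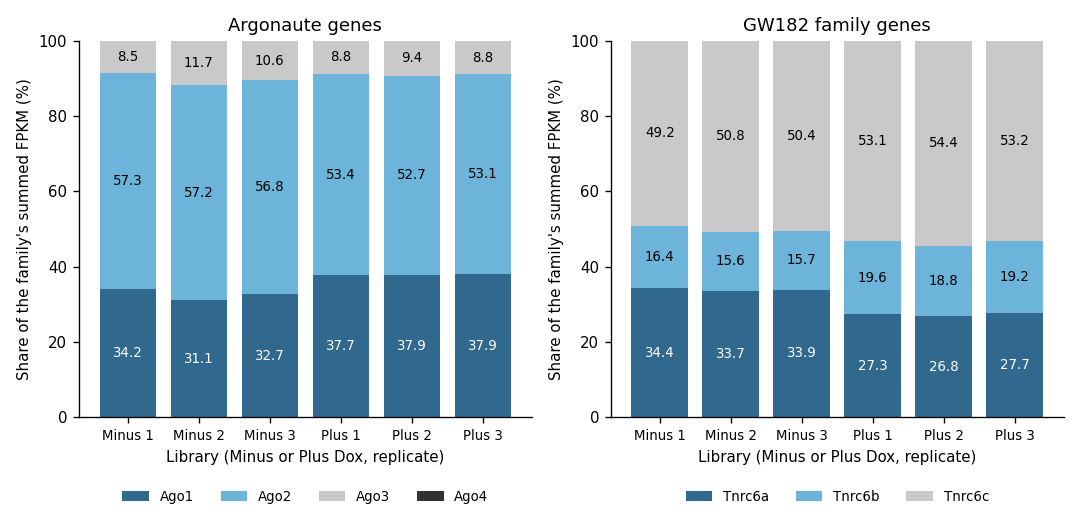
Share of each paralog in the summed FPKM of the Argonaute genes (left) and the GW182 genes (right), in percent, with 1 stacked bar per library. Ago2 shares are 52.7% to 53.4% with Dox against 56.8% to 57.3% without, and Tnrc6a shares 26.8% to 27.7% against 33.7% to 34.4%, while Ago4 is too low to be seen.

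Around these 10 genes, 71 further genes of the pathway were listed by role, of which 68 could be tested; Ago4, Lin28a and Lin28b were below the filter. In this list 10 genes passed, 7 higher and 3 lower, or 14.7%, close to the 15.0% of all tested genes. The groups did not overlap in 29 of the 68, against 35.0% of all genes with 6 values. None changed by 1.5-fold. Their median log2 fold change was 0.02, beside 0.00 over all tested genes.

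By role, no gene passed in limma among the 11 cropping cofactors and cap-binding genes, the export cofactor Ran, the 2 partners of DICER and the 12 tested genes of tailing, trimming and turnover. At an unadjusted p under 0.05 there was 1 cropping cofactor and 1 partner of DICER, and 0 in the other roles just named. Over all tested genes 3761 of 12879 were under that level. Among the 14 tested genes of Argonaute loading, import and control, 5 rose and 1 fell, or 42.9%. Of all tested genes 15.0% passed (7.06% higher and 7.97% lower). The list was drawn up with earlier results of these data known, and the difference between these shares was not tested. Some of these calls were lost with 1 library left out, as given below. The chaperone genes Hsp90ab1 and Hsp90aa1, whose products help load the duplex into Argonaute, rose with log2 fold changes of 0.15 and 0.15 (adjusted p = 0.00524 and 0.0299), and their co-chaperone gene Fkbp4 with one of 0.18 (adjusted p = 0.0119). Hsp90aa1 shares 68.7% of its longest transcript with another annotated gene, so its value is uncertain. Hspa8, which encodes the constitutive HSC70 and was with the HSP90 genes among the 3 most abundant of the list, averaged 1589 ± 13.9 and 1659 ± 22.8 FPKM and did not pass (log2 fold change 0.06, adjusted p = 0.0997, 64.7% of its transcript shared).

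The changes of Ajuba and Mov10 were the largest of the list and could not be ranked, since Mov10 was ahead of Ajuba when MinusDox library 2, PlusDox library 2 or PlusDox library 3 was left out. Ajuba encodes a LIM-domain protein found with Argonaute in P-bodies. Its level was 138, 142 and 138 FPKM in MinusDox and 184, 190 and 185 FPKM in PlusDox libraries, and the log2 fold change was 0.42 (SE 0.0321, limma adjusted p = 3.94e-04). Ankrd52, a subunit of the phosphatase that acts on Argonaute, rose by a log2 fold change of 0.23 (adjusted p = 0.0133). Zswim8, the substrate receptor of the ligase that degrades Argonaute during target-directed microRNA decay, fell with a log2 fold change of -0.17 (adjusted p = 0.0253).

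In the deadenylation genes 3 of 13 passed in different directions, or 23.1%, beside the same 15.0%. Pabpc1, which encodes the poly(A)-binding protein that GW182 proteins contact, rose with a log2 fold change of 0.14 (adjusted p = 0.0195). The CCR4-NOT nuclease genes Cnot6 and Cnot8 fell with log2 fold changes of -0.17 and -0.20 (adjusted p = 0.0302 and 0.0450). Of the longest Cnot8 transcript, 36.2% is shared with another annotated gene. The other CCR4-NOT nuclease genes listed, Cnot7 and Cnot6l, had log2 fold changes of 0.27 and 0.07 and did not pass (limma adjusted p = 0.118 and 0.594). The groups of Cnot7 did not overlap, and those of Cnot6l did. Among the 15 genes of decapping, decay and P-bodies only Mov10 passed. It encodes an RNA helicase that binds Argonaute, and it was at 25.4, 26.5 and 24.9 FPKM in MinusDox and 36.3, 33.1 and 33.0 FPKM in PlusDox libraries, which gave a log2 fold change of 0.41 (SE 0.0587, limma adjusted p = 0.00487). With 1 library left out the number of the 68 genes that passed was between 4 and 7. Over all 12879 tested genes, of which 1935 passed in the main fit, it was then between 1048 and 1359. Ajuba, Mov10, Hsp90ab1 and Fkbp4 passed in all 6 such fits and Ankrd52 in 4. Pabpc1 passed in 2, with adjusted p from 0.0222 to 0.0820, Hsp90aa1 in 1, from 0.0189 to 0.0983, and Cnot6 in 1, from 0.0443 to 0.0872. Zswim8 and Cnot8 passed in 0, with adjusted p from 0.0516 to 0.0760 and from 0.0807 to 0.133.

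**Figure D4:**
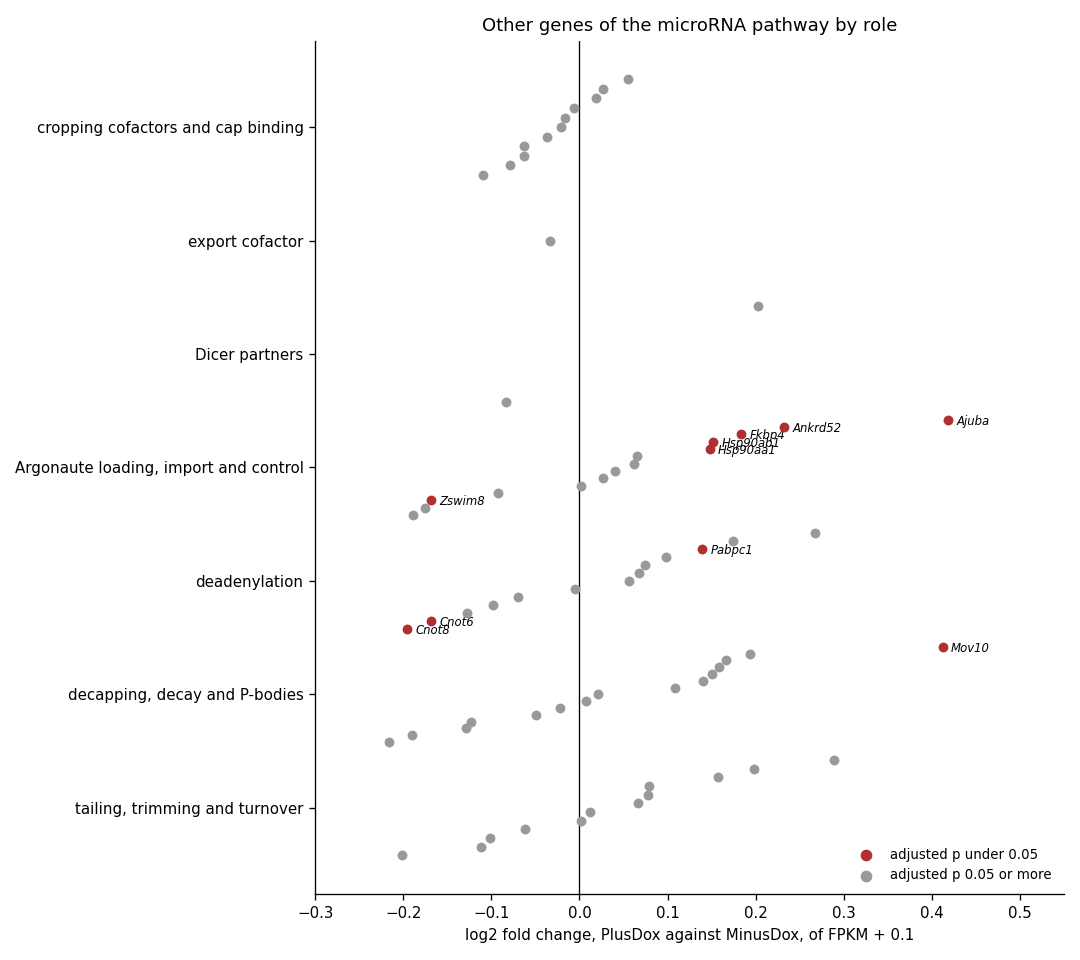
Log2 fold change of FPKM + 0.1, PlusDox against MinusDox, for the 68 tested genes of the wider pathway, 1 point per gene, grouped by role on the vertical axis, with the 10 genes whose adjusted p was under 0.05 in red and named. Ajuba at 0.42 and Mov10 at 0.41 lie farthest to the right, and the other named genes lie between -0.20 and 0.23.

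The seed match of 7 bases was found in 15 of the 68 tested genes of the wider list, or 22.1%. Of the 3 that fell, Cnot6 held 2 matches and Zswim8 and Cnot8 held 0, and of the 7 that rose 1 held a match. Over all tested genes with an annotated 3′ UTR, 17.3% of the 1738 with at least 1 match were lower with Dox and 4.14% higher, against 7.33% and 8.53% of the 9060 without one. The 3′ UTRs with a match were also longer, with a median of 2524 bases against 1009, and the part of length in this difference was not tested.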

How the data were processed

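Single-pass reads of stranded mRNA libraries were mapped to the mouse genome (GRCm38.p6 in the submitters' processing notes, with an FVB/NJ assembly also named in the methods) with gSNAP, and the authors deposited FPKM values per gene and library, computed with Cufflinks. Versions of these tools are not given in the sources used here. The same table holds the authors' group means, fold changes, p-values and q-values, which were not used, and 0 columns of per-sample values were left out.

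Of 43611 rows, 63 repeats of a gene identifier were dropped, keeping the row with the higher mean, and a placeholder in 6 cells of 4 genes, none of them a machinery gene, was treated as missing. limma 3.58.1 (R 4.3.3, eBayes with trend, group the only term) was run on log2(FPKM + 0.1) over genes averaging 1 FPKM or more, with Benjamini-Hochberg adjustment over all 12879. On this scale the changes of low genes are understated. The fit was tested on simulated data. Shares of paralogs were compared by exact two-sided permutation (scipy 1.17.1). Seed matches were counted in the longest 3′ UTR per gene, and shared sequence is the part of the longest transcript that matches another gene at 95% identity over at least 50 bases (BLAST 2.17.0), marked from 10%. Alternatives were a pseudocount of 1 or 0.01, no filter or a mean of at least 5 FPKM, quantile or median scaling, no trend, unmoderated models, a replicate block, an adjusted p under 0.01, a change of at least 1.5-fold, and leaving out each library.

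All 10 machinery genes are named, with Ago4, Tarbp2 and Prkra, the genes of the wider list that passed, its 3 most abundant genes, and Zeb1, Zeb2 and Mir200c. Cnot7 and Cnot6l are named beside Cnot6 and Cnot8. The members and lists were chosen with earlier results of these data known.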

Additional observations from a re-analysis of the deposited data

How the results depend on the processing

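Of the 10 machinery genes, each kept its direction in all 15 alternative fits on a log2 scale and in the fit on FPKM, and Tnrc6a passed in all of them (log2 fold change -0.45 to -0.42). Xpo5 passed in 7 and Dicer1 in 8 of the 15 log2 fits, Ago2 in 2, Tnrc6b in 1 and the other 5 in 0. The number of machinery genes that passed was 3, and became 1 (0 higher) with the replicate block, with an adjusted p under 0.01 and with each library left out (1 to 1, with 0 to 0 higher and 1 to 1 lower). It was 5 (2 lower, with Ago2 and Tnrc6b added) in the unmoderated models on FPKM and on log2(FPKM + 1), and 0 (0 higher, 0 lower) when a change of at least 1.5-fold was also required. Quantile normalization added Ago2 (2 lower), and without the trend 1 gene was higher. In the replicate block fit, Xpo5 had an adjusted p of 0.0848, Dicer1 of 0.102 and Tnrc6a of 0.0122. Same-numbered libraries did not deviate together (correlations of -0.00759 to 0.0359 over 3 pairs), so the numbers were not taken as pairs.

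In the wider list, 10 genes passed, against 6 (0 lower) with the replicate block, 4 (3 higher, 1 lower) without the trend, 3 (3 higher, 0 lower) at an adjusted p under 0.01, 0 (0 higher, 0 lower) with 1.5-fold, and 4 to 7 (4 to 7 higher, 0 to 1 lower) with a library left out. Hspa8 turned from 0.06 to -0.0090 under quantile normalization, and Hsp90ab1 then had an adjusted p of 0.433. Over all genes 1935 passed, against 1495 (665 higher, 830 lower) without the trend and 1912 with quantile normalization. The unmoderated models passed 1289 (593 higher) on FPKM and 598 higher on log2(FPKM + 1), an adjusted p under 0.01 passed 770 (357 higher, 413 lower), 1.5-fold passed 452 (221 higher, 231 lower), and leaving out a library passed 1048 to 1359 (471 to 671 higher, 577 to 699 lower). Stricter thresholds lower these counts by construction. For the other settings, leaving out a library among them, the cause was not tested. The differences in paralog share kept their direction with each library left out and without Ago4, and the counts of seed matches in the machinery genes did not change when all annotated 3′ UTRs of a gene were merged. The number of reads behind each value is unknown, which limits what can be said of low genes such as Ago4.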
